A study of Mus musculus with 60 samples.

Results

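The 8 genes described here are the 5 muscarinic acetylcholine receptors (Chrm1, Chrm2, Chrm3, Chrm4 and Chrm5) and 3 genes that neurons need in order to release acetylcholine (Chat, Slc18a3 and Slc5a7), out of 19938 mouse genes named on the array. A gene was taken from the rows of the value table that carry its symbol and no other, and each of the 8 had exactly 1 such row. The study hybridised fetal brain RNA to Affymetrix Mouse Gene 1.0 ST arrays after dosing the dams with CPO (chlorpyrifos oxon), an inhibitor of acetylcholinesterase that the body makes from an insecticide. Each of the 60 arrays held the pooled RNA of 1 dam's fetuses, and dams are therefore the replicates. Dosing lasted 12 days, from gestational day 6 to day 17, and brains were taken on day 18. Dams were drawn at random after those whose own brain acetylcholinesterase lay more than 1.5 SD from their group mean had been set aside.

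The labels give 12 groups of 5 arrays, all on the strain background B6.129. Wild type mice (WT) received 0, 0.75 or 0.85 mg/kg/d of CPO. PON1-knockout mice (KO), which by their label lack the enzyme that hydrolyses CPO in blood and liver, received 0, 0.50 or 0.75 mg/kg/d. Mice with a transgene for human PON1 of the Q192 form (tgHuPON1Q192, Q-tg) and of the R192 form (tgHuPON1R192, R-tg) received 0, 0.75 or 0.85 mg/kg/d. The labels used here name neither the transgenes' promoter nor the state of the mouse Pon1 gene in these 2 lines. The mouse Pon1 signal fell into a low class (at most 5.67) and a high class (at least 9.72, log2 signal), and it went against the label on 10 arrays. Of the 15 arrays labelled KO, 5 had the high signal, and of the 45 other arrays, 5 had the low one, 2 of them labelled WT. Groups below are named by their labels, and some of the results are also given without these 10 arrays.

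Muscarinic receptors are G protein-coupled receptors for acetylcholine. Those encoded by Chrm1, Chrm3 and Chrm5 couple mainly to Gq proteins and phospholipase C, and those encoded by Chrm2 and Chrm4 to Gi and Go proteins, which lower cyclic AMP. Chat encodes choline acetyltransferase, which makes acetylcholine, Slc18a3 encodes the transporter that loads it into synaptic vesicles, and Slc5a7 encodes the high-affinity choline transporter that returns choline to the nerve terminal. In the developing brain these genes mark motor neurons of the brainstem and spinal cord, the basal forebrain and striatal interneurons. Hoxa5, a homeobox gene expressed in the caudal hindbrain and spinal cord and not in the forebrain, served as the measure of how much of that tissue a pool of brains held. In pooled tissue, fewer cells of a type and less RNA per cell cannot be told apart.

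Slc18a3 lies inside Chat on mouse chromosome 14, in the arrangement known as the cholinergic gene locus. Its start is 1059 bases from that of Chat on the same strand, while Slc5a7 is on chromosome 17. The 250 bases before each start are shown because Slc18a3 and Slc5a7 had slopes on Hoxa5 across the arrays that passed the test, while Chat, the neighbour of Slc18a3, had none that passed on Hoxa5 itself. They are RefSeq sequences of build GRCm38.p6, all on the minus strand, at chr14:32465910-32466159 (Chat), chr14:32464851-32465100 (Slc18a3) and chr17:54299035-54299284 (Slc5a7). By the gene table of the same build Slc5a7 starts farther upstream, so 4 bases of its window lie inside the gene. Capitals mark CCGCCC, the reverse strand of GGGCGG.
Chat: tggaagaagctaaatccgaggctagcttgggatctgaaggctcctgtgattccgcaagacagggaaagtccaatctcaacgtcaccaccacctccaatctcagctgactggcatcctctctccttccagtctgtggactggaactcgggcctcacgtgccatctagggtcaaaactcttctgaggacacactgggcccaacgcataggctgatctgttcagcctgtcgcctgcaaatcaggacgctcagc
Slc18a3: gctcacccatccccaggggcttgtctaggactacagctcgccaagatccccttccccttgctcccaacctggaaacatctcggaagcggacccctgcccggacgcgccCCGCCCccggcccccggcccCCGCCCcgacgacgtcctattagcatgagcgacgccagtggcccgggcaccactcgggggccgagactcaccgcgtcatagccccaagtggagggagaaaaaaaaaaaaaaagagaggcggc
Slc5a7: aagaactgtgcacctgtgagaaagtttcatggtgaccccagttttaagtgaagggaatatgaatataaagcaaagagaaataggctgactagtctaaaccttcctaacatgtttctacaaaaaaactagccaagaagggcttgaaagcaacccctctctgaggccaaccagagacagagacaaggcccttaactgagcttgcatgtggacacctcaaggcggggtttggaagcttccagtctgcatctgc
Base composition differed between the 3 windows, with G and C making up 54.8% of the Chat window, 66.0% of the Slc18a3 window and 45.6% of the Slc5a7 window, against a median of 52.4% over 32851 mouse promoters of the same length. Both strands were searched for GGGCGG (the core of Sp1 sites, found in 32.7% of those promoters), TAATTA (a homeodomain core, 4.84%), TGACGTCA (the cyclic AMP response element, 1.55%) and TTCAGCACC (a part of the RE1 element, 0.301%). The Slc18a3 window held GGGCGG on its reverse strand 142 and 122 bases before the start. None of the 4 motifs was found in the other two windows, which says only that these letters do not occur there.

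The authors deposited log2 signals from RMA (robust multi-array average), which sets the probe signals of all arrays to a common distribution before they are summarised per row. A value is meant to be compared between arrays for 1 gene but not between genes. The summarised values still differed in distribution, with lower quartiles of 5.92 to 6.26 between arrays. Array medians lay between 7.378 and 7.473, and pairs of arrays correlated at 0.9865 to 0.9984. Brain neuron genes were high on every array, for example Snap25 (11.11 to 11.46) and Stmn2 (12.80 to 12.96), while Gh, a pituitary hormone gene, ranged from 6.42 to 10.73. A dim level of 6.54 was set at the 95th percentile of 1035 olfactory receptor rows. Of the 8 genes, 7 had a mean above it, and Chat lay below it with a mean of 6.17, in the range of the olfactory receptor rows.

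The receptor genes varied little over the 60 dams, by at most 0.45 log2 units between the lowest and the highest array. Chrm1 had a mean of 8.28 (SD 0.09, n = 60; lowest 8.06, highest 8.47). For Chrm2 the mean was 9.01 (SD 0.10; 8.76 to 9.21), and for Chrm3 it was 8.92 (SD 0.08; 8.72 to 9.08). Chrm4 had a mean of 7.25 (SD 0.11; 7.01 to 7.45), and Chrm5 one of 7.10 (SD 0.08; 6.94 to 7.29). The presynaptic genes had wider ranges: Chat ranged from 5.85 to 6.58 (SD 0.15), Slc18a3 from 6.85 to 7.68 (mean 7.33, SD 0.16) and Slc5a7 from 7.08 to 7.62 (mean 7.38, SD 0.13). Against the median SD of 0.107 over all rows, Slc18a3 stood at the 83.5th percentile of SD, Chat at the 79.3rd and Slc5a7 at the 65.4th. Chrm4 stood at the 54.6th percentile, Chrm2 at the 40.4th, Chrm1 at the 33.4th, Chrm5 at the 22.5th and Chrm3 at the 16.4th.

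**Figure D1:**
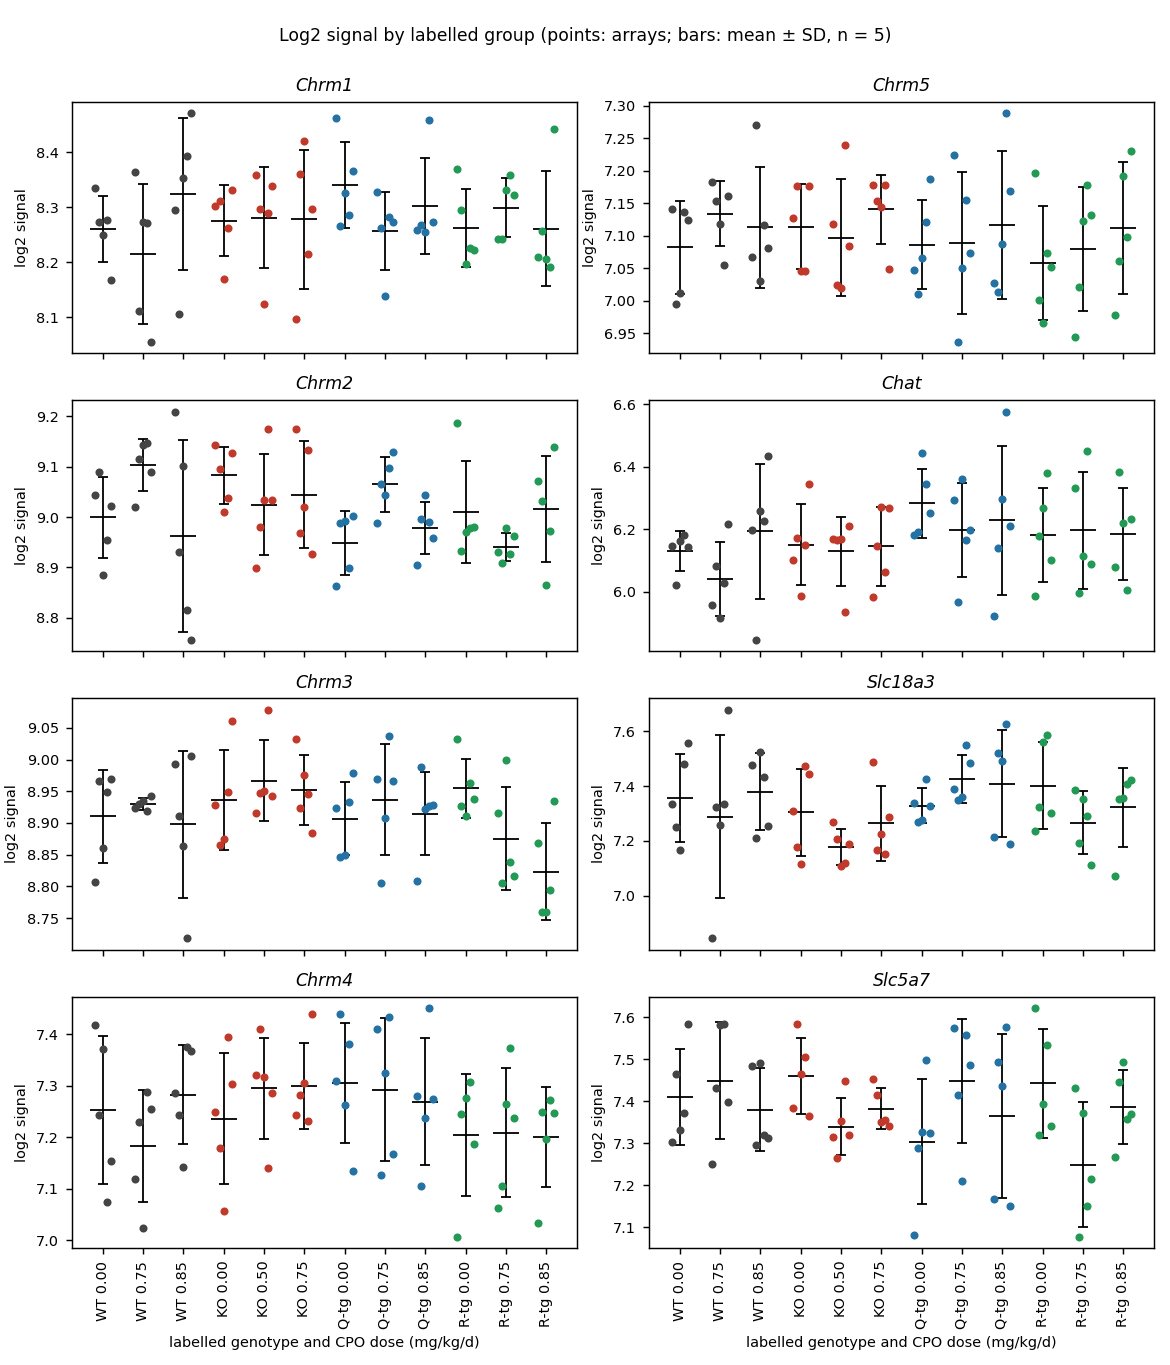
Log2 signal of the 8 genes on every array (points), by labelled genotype and CPO dose in mg/kg/d, with the group mean and SD (bars, n = 5); each panel has its own axis, which does not start at 0. Group means of Slc18a3 run from 7.18 to 7.43 and those of Chrm5 from 7.06 to 7.14, and neighbouring groups overlap in every panel.

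Ordered by mean, the 12 groups formed a run without a break for each of the 8 genes: in none of the 11 pairs of neighbours did the arrays of one group lie wholly above those of the next. Chrm1 was highest in Q-tg at dose 0 (8.34 ± 0.08, SD, n = 5) and lowest in WT at 0.75 (8.22 ± 0.13). Chrm2 was highest in WT at 0.75 (9.10 ± 0.05) and lowest in R-tg at 0.75 (8.94 ± 0.03). The 5 WT arrays at 0.75 read 9.02, 9.12, 9.14, 9.15 and 9.09, all above the R-tg arrays at 0.75, which read 8.93, 8.91, 8.98, 8.93 and 8.96 (3.64% of all rows had no overlap between these groups). Chrm3 ran from 8.97 ± 0.06 in KO at 0.50 to 8.82 ± 0.08 in R-tg at 0.85, and Chrm4 from 7.31 ± 0.12 in Q-tg at dose 0 to 7.18 ± 0.11 in WT at 0.75. Chrm5 had the narrowest order, from 7.14 ± 0.05 in KO at 0.75 to 7.06 ± 0.09 in R-tg at dose 0.

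Among the presynaptic genes, Chat was highest in Q-tg at dose 0 (6.28 ± 0.11, SD, n = 5) and lowest in WT at 0.75 (6.04 ± 0.12). Slc18a3 was highest in Q-tg at 0.75, where the arrays read 7.39, 7.35, 7.36, 7.55 and 7.48, and lowest in KO at 0.50, where they read 7.27, 7.21, 7.11, 7.12 and 7.19. Those 2 groups did not overlap, as for 2.55% of all rows. Slc5a7 ran from 7.46 ± 0.09 in KO at dose 0 to 7.25 ± 0.15 in R-tg at 0.75. Of the 66 pairs of groups, 5 were without overlap for Chrm2, 1 each for Chat and Slc18a3, and 0 for the other 5 genes. Over all rows, 31.5% had at least 1 such pair and 2.63% at least 5. Group membership held 27.0% of the variance of Chrm2, 25.5% of that of Chrm3, 23.4% for Slc5a7, 19.8% for Slc18a3, 14.9% for Chat, 14.4% for Chrm4, 12.9% for Chrm1 and 8.35% for Chrm5. The median over all rows was 18.3%.

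CPO changed none of the 8 genes at an adjusted p under 0.05 in any labelled genotype (limma, Benjamini-Hochberg over 21789 rows). For KO this says less, as replicates 1, 4 and 5 at 0.75 and replicates 1 and 2 at dose 0 had the high Pon1 signal. In each of the 8 comparisons of a CPO dose with dose 0, 0 of 21789 rows passed (0%), while 400 to 2216 rows had an unadjusted p under 0.05. Over these comparisons, 2 of 64 values of the 8 genes had an unadjusted p under 0.05 (3.125%), against 4.18% of all rows. For the receptors the differences lay between -0.08 and 0.06 for Chrm1, -0.07 and 0.12 for Chrm2, -0.13 and 0.03 for Chrm3, -0.07 and 0.06 for Chrm4, and -0.02 and 0.05 for Chrm5 (log2, CPO minus dose 0). For the presynaptic genes they lay between -0.09 and 0.06 (Chat), -0.14 and 0.10 (Slc18a3) and -0.19 and 0.14 (Slc5a7). The widest of these, for Slc5a7, came from R-tg at 0.75. Its arrays read 7.43, 7.08, 7.37, 7.15 and 7.21, and those of R-tg at dose 0 read 7.62, 7.32, 7.39, 7.53 and 7.34. The groups overlapped, and the difference was -0.19 (SE 0.08, 95% interval -0.35 to -0.04, adjusted p = 0.898, limma). Hoxa5 differed by -0.69 (SE 0.42) between the same groups, and with Hoxa5 as a term in the model the Slc5a7 difference was -0.12. Some of the ranges above were wider without the 10 arrays whose Pon1 signal went against the label. In KO at 0.75 the difference was then 0.14 for Chrm1 (SE 0.08) and -0.15 for Slc18a3 (SE 0.14). It was -0.17 for Slc18a3 in KO at 0.50 (SE 0.11) and -0.22 for Slc5a7 in R-tg at 0.75 (SE 0.08). None of the 8 genes passed in that fit.

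Slc18a3 was 7.27 in R-tg at 0.75 and 7.40 at dose 0, a difference of -0.14 (SE 0.10) that was -0.03 with Hoxa5 in the model. Chrm3 read 8.87, 8.76, 8.76, 8.79 and 8.93 in R-tg at 0.85 and 9.03, 8.93, 8.91, 8.96 and 8.94 at dose 0. Most of the treated arrays lay below the controls, but one array reached their range, and the difference was -0.13 (SE 0.05, 95% interval -0.23 to -0.04, adjusted p = 0.987, limma). Chrm2 differed by 0.12 (SE 0.06) in Q-tg at 0.75, with arrays at 8.99, 9.07, 9.04, 9.10 and 9.13 against a lowest of 8.86 and a median of 8.99 at dose 0. Chrm1 differed by -0.08 (SE 0.06) in Q-tg at 0.75, Chrm4 by -0.07 (SE 0.07) and Chat by -0.09 (SE 0.09) in WT at 0.75 (0.011 and 0.030 with the lower quartile of all rows of each array as a term), and Chrm5 by 0.05 (SE 0.05) in R-tg at 0.85. Averaged over the 4 genotypes at 0.75, every gene differed from dose 0 by between -0.04 and 0.03, and over WT, Q-tg and R-tg at 0.85 by between -0.05 and 0.04, with 0 of 16 values at an unadjusted p under 0.05. The 95% intervals of those averages stayed within -0.14 and 0.12.

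None of the 8 genes passed between genotypes at dose 0. In the 4 comparisons with every array kept, 0 of 21789 rows passed in each (0%), with 362 to 1183 rows at an unadjusted p under 0.05. Without the arrays whose Pon1 signal went against the label, 29 rows passed for KO against WT. They included none of the 8 genes. With every array kept, 0 of 32 values of the 8 genes had an unadjusted p under 0.05 (3.57% over all rows). Arrays did not overlap in 1 of the 32 values, against 0.734% of all rows in the same comparison: that of Chat in Q-tg against WT at dose 0, in which the Q-tg arrays read 6.18, 6.19, 6.44, 6.35 and 6.25 and the WT arrays 6.15, 6.02, 6.16, 6.18 and 6.14. All Q-tg arrays were above all WT arrays, the lowest and highest of them agreeing to the second decimal, and the difference was 0.15 (SE 0.09, adjusted p = 1.00, limma). The highest of these Q-tg arrays (6.44) and the lowest of the WT arrays (6.02) had a Pon1 signal that went against the label. Without the 10 such arrays of the series the Chat difference was 0.08 (SE 0.10). With every array kept, Slc5a7 was 7.44 in R-tg and 7.30 in Q-tg, a difference of 0.14 (SE 0.08).

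Whether the response to CPO differed between genotypes was tested by 7 interaction terms. In 6 of them 0 of 21789 rows passed, with 408 to 2839 rows at an unadjusted p under 0.05 over the 7 terms, and in the R-tg minus WT term at 0.75 mg/kg/d 1 row passed (0.00459%), which was none of the 8 genes. The unadjusted p was under 0.05 for 5 of 56 values of the 8 genes (8.93%) and for 6.21% of all rows. Slc5a7 gave the widest, a response at 0.75 that was 0.34 lower in R-tg than in Q-tg (-0.34, SE 0.11, adjusted p = 0.840, limma), and Hoxa5 moved the same way in that term (-1.49, SE 0.60). Its response in R-tg was also lower than in WT (-0.23, SE 0.11, adjusted p = 0.365). Chrm2 responses at 0.75 were lower in R-tg than in WT (-0.17, SE 0.08) and than in Q-tg (-0.18, SE 0.08), and the Chrm3 response at 0.85 was lower in R-tg than in Q-tg (-0.14, SE 0.07), none past adjustment. These terms share the R-tg controls. Without the 10 arrays whose Pon1 signal went against the label, again 0 of the 168 values passed, and the smallest adjusted p was 0.233, for Chrm2 in the R-tg minus WT term at 0.75.

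Slc18a3 and Slc5a7 were higher on arrays with more Hoxa5, and Chat and the 5 receptors had no slope that passed. Hoxa5 had a mean of 7.08 (SD 0.71, n = 60) and ran from 5.78 to 8.28 with no gap wider than 0.15 between successive arrays. In a limma model with the 12 groups, Slc18a3 rose by 0.15 log2 units per log2 unit of Hoxa5 (SE 0.02, adjusted p = 2.51e-05, rank 51 of 21788 rows by p). Slc5a7 rose by 0.10 (SE 0.02, adjusted p = 0.00188, rank 124). Over all 21788 rows, 848 passed (3.89%), of which 283 were higher with Hoxa5 (1.3%) and 565 lower (2.59%). The 848 became 1660 without WT at 0.75 replicate 1. So 2 of the 3 presynaptic genes and 0 of the 5 receptors were among the rows that were higher. For the receptors, 0 of 5 is near the share of 1.3% over all rows. Chat had a slope of 0.02 (SE 0.03, adjusted p = 0.774). With the mean of 18 hindbrain and cord genes in place of Hoxa5, the Chat slope was 0.36 and passed (adjusted p = 0.00827, limma), as did 9331 of 21770 rows. That mean itself correlated with the lower quartile of the array at 0.49. Its SD was 0.18 against 0.71 for Hoxa5, so slopes on the mean and on Hoxa5 are not on the same scale. The receptor slopes on Hoxa5 were -0.05 for Chrm1 (SE 0.02, adjusted p = 0.125), 0.03 for Chrm2 (adjusted p = 0.508), 0.00 for Chrm3 (adjusted p = 0.926), -0.02 for Chrm4 (adjusted p = 0.727) and -0.02 for Chrm5 (adjusted p = 0.534).

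The arrays at the ends of the Hoxa5 range show the size of this. On the 5 arrays with the least Hoxa5 (5.78 to 5.96), Slc18a3 read 6.85, 7.23, 7.12, 7.21 and 7.11. On the 5 with the most (8.05 to 8.28) it read 7.39, 7.56, 7.49, 7.52 and 7.33. The 2 sets did not overlap, and they came from several genotypes and doses. The share of all rows without overlap between these sets was not counted, so this adds no test to the slope. For Slc5a7 the arrays with the least Hoxa5 read 7.25, 7.35, 7.45, 7.17 and 7.21, and those with the most read 7.43, 7.58, 7.45, 7.49 and 7.58. Those sets met at 1 array, KO at 0.50 replicate 4. Chat read 5.96, 6.27, 5.94, 5.92 and 6.09 at the low end and 6.33, 6.14, 5.98, 6.26 and 6.03 at the high end, with wide overlap. Fitted within each labelled group, the slope was above 0 for Slc18a3 in 11 of 12 groups, for Slc5a7 in 10 of 12 and for Chat in 8 of 12. Such signs were not counted over all rows.

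**Figure D2:**
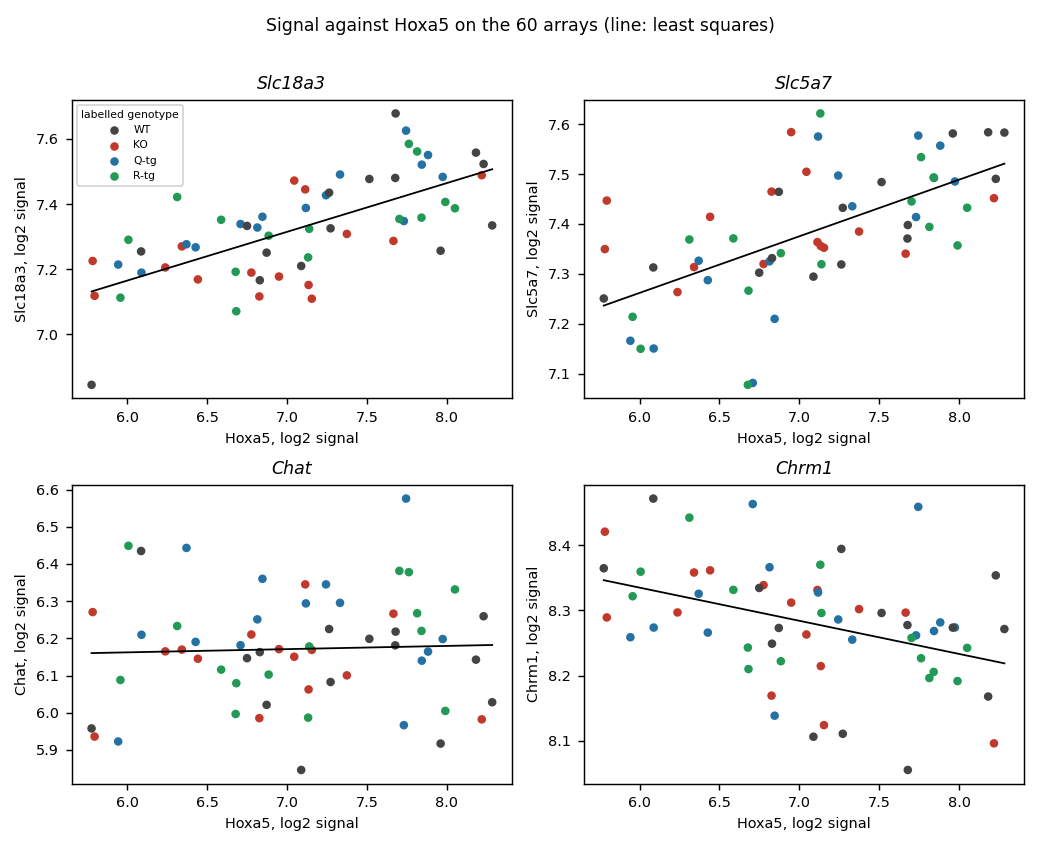
Log2 signal of Slc18a3, Slc5a7, Chat and Chrm1 against the log2 signal of Hoxa5 on the 60 arrays (points, coloured by labelled genotype; line, least squares). Slc18a3 and Slc5a7 climb along the whole range of Hoxa5 (r of 0.67 and 0.62), Chat does not (0.04) and Chrm1 drifts down (-0.40).

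As a correlation over the 60 arrays, Slc18a3 and Hoxa5 had a Pearson r of 0.67 and a Spearman rho of 0.68, each with a permutation p of 1e-05, the smallest that 100000 permutations can give. Slc5a7 had r = 0.62 and rho = 0.67, each also at a permutation p of 1e-05. Without the 2 arrays farthest from the median Hoxa5, r was 0.65 and 0.63. Chat had r = 0.04 (permutation p = 0.754) and rho = 0.05. Of the receptors, Chrm1 had r = -0.40 (permutation p = 0.0017) and rho = -0.42, with r = -0.35 without the 2 arrays, and Chrm2 had r = 0.26 (permutation p = 0.0448) and rho = 0.27, and r = 0.33 with the lower quartile of the array removed. Chrm3 (r = 0.01), Chrm4 (-0.16) and Chrm5 (-0.15) had permutation p-values from 0.221 to 0.917. These are 8 relations, and the limma slopes above are the test adjusted over all rows, in which neither Chrm1 nor Chrm2 passed.

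Hoxa5 was also related to Pon1 (r = 0.49, rho = 0.44), with a mean of 6.49 on the 15 arrays with low Pon1 and 7.28 on the others. With Pon1 as a further term, the slope on Hoxa5 was 0.16 for Slc18a3 and 0.12 for Slc5a7, and without the 10 arrays against their label it was 0.16 and 0.13. Both genes passed in each case (adjusted p at most 0.00305, limma), while the count over all rows fell from 848 to 255 and 143.

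**Figure D3:**
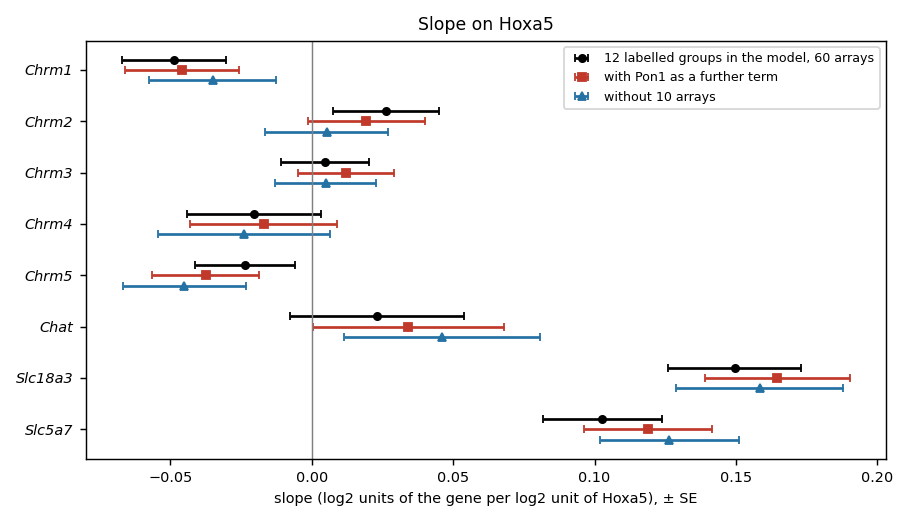
Slope of each gene on Hoxa5 in log2 units per log2 unit (points, with SE bars) in the model of 12 labelled groups over 60 arrays, with Pon1 as a further term, and without the 10 arrays whose Pon1 signal goes against the label. Slc18a3 and Slc5a7 lie clear of 0 under all 3 settings. In the model of 12 labelled groups Chrm1 lies below 0 (-0.05, SE 0.02) but did not pass (adjusted p = 0.125, limma), and the remaining genes lie nearer to 0.

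Other genes of the same neurons and regions were read from lists, against shares of 1.3% higher and 2.59% lower over all rows. Of the hindbrain and cord genes, 12 of 18 were higher with Hoxa5 and 0 lower (median slope 0.20, against -0.01 over all rows), led by Slc6a5, the glycine transporter of inhibitory neurons (0.68), and Hoxb5 (0.53). Of the motor neuron genes, 3 of 15 were higher: Prph, an intermediate filament (0.23), the transcription factor Tbx20 (0.19, below the dim level) and Ret, a growth factor receptor (0.14). Of the genes of acetylcholine and choline turnover, 1 of 11 was higher, Ache, which encodes acetylcholinesterase, the enzyme that CPO inhibits (0.08, SE 0.02, adjusted p = 0.0147, limma). Among genes listed for forebrain cholinergic neurons, 2 of 7 were higher, Ngfr (0.08) and Gbx2 (0.05), while Lhx8, a factor of forebrain cholinergic neurons, had a slope of -0.05 (adjusted p = 0.119, limma). Whether the listed genes are expressed in those neurons alone was not tested. Of the cortex genes, 0 of 9 were higher and 8 lower (median -0.09), among them Fezf2 (-0.16) and Emx2 (-0.12).

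On the receiving side of the synapse no listed gene passed. With 3.89% of all rows passing, 0 in lists of this size is near the share over all rows and sets these genes apart from none. Of the 11 nicotinic receptor subunits 0 passed, with the largest slopes for Chrna6 (-0.06), Chrnb3 (0.05), Chrna2 (0.03) and Chrnb2 (-0.03). Of the 19 genes of muscarinic signalling (G proteins, phospholipases and the potassium channels they act on) 0 passed, and the largest slopes were those of Kcnj6 (0.07), Kcnq5 (-0.05), Kcnj9 (-0.04) and Plcb4 (0.04). Of the 8 striatal genes, Penk was higher (0.15) and Drd1 (-0.08), Ppp1r1b (-0.07) and Foxp1 (-0.06) were lower. In choroid plexus, 4 of 6 genes were higher with Hoxa5 (Kcnj13, Clic6, Sostdc1 and Ttr, slopes 0.07 to 0.10), and 1 of 9 midbrain genes, Nr4a2, was lower (-0.07). No gene of the peripheral ganglion, skeletal muscle, pituitary, vascular, blood, microglia or neuron lists passed. The part of dissection or of any of these tissues in the slopes of Slc18a3 and Slc5a7 was not tested.

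Chat, with a mean of 6.17 that lay below the dim level, was related to another property of the arrays. The lower quartile of all 28858 rows of an array ran from 5.92 to 6.26, and Chat correlated with it at r = 0.75 (rho = 0.74, permutation p = 1e-05, the smallest possible; r = 0.73 without the 2 farthest arrays). Hoxa5 did not (r = 0.02). Chrm4 also rose with the lower quartile (r = 0.60, rho = 0.60) and Chrm2 fell with it (r = -0.57, rho = -0.49). Slc18a3 (r = 0.36), Chrm1 (0.33) and Chrm3 (-0.33) were related to it less closely, while Slc5a7 (-0.15) and Chrm5 (0.00) were not past the permutation test at 0.05. The mean of 12 skeletal muscle genes had r = 0.93 with the lower quartile and r = 0.69 with Chat, and 6 of those 12 lay below the dim level. The mean of Chat (6.17) lay inside the range of the lower quartile itself. How many other rows, or other rows of that level, correlate as closely with the lower quartile was not counted. These correlations therefore have no background to be read against and are not shown to be particular to Chat, Chrm4 or Chrm2. A technical cause of the lower quartile was not tested. The dates or batches of the arrays are not given in the sources used here.

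**Figure D4:**
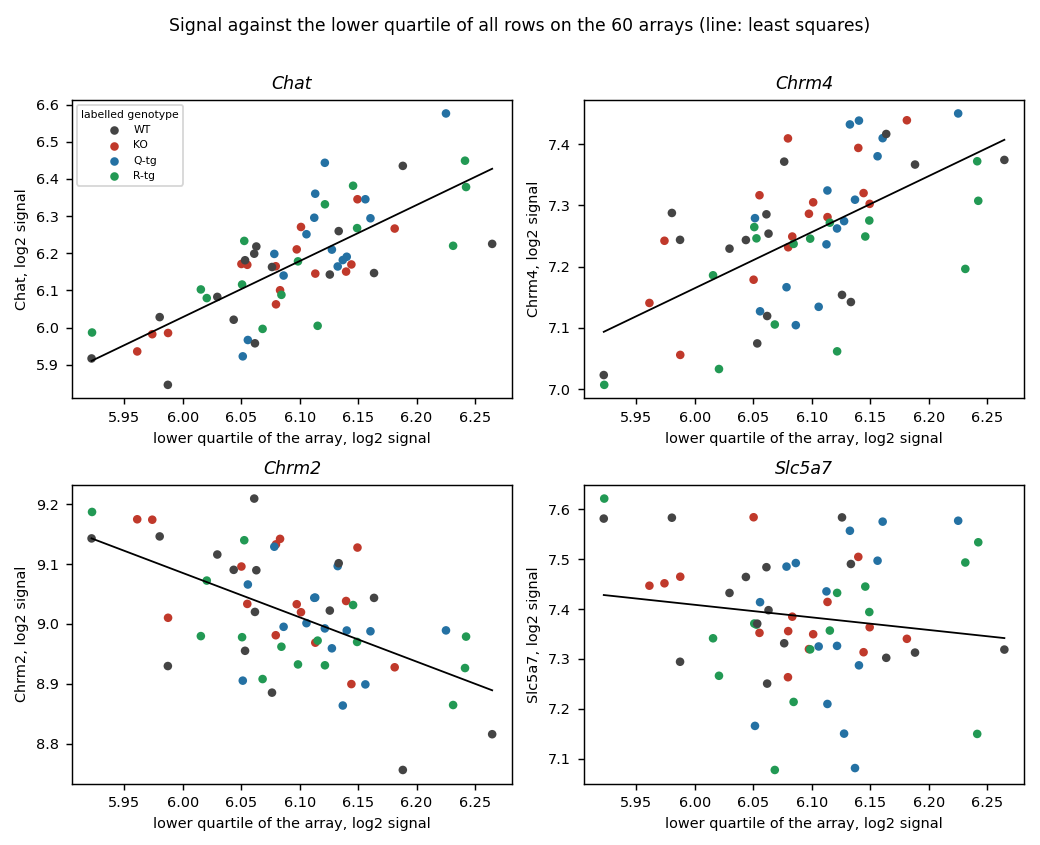
Log2 signal of Chat, Chrm4, Chrm2 and Slc5a7 against the lower quartile of all rows of the same array (log2 signal; 60 arrays, coloured by labelled genotype; line, least squares). Chat and Chrm4 climb with it (r of 0.75 and 0.60), Chrm2 falls (-0.57) and Slc5a7 shows little trend (-0.15).

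Among the 28 pairs of the 8 genes, 7 correlated at an adjusted permutation p under 0.05. The adjustment covered these 28 pairs alone. The share among pairs of other rows was not counted, so 7 of 28 has no background to be read against. Slc18a3 and Slc5a7 had r = 0.43 (rho = 0.47, adjusted p = 0.0037 for r, permutation test), and after regression of both on Hoxa5 r was 0.02. After regression on the lower quartile instead, it was 0.53. Chat and Slc18a3, the neighbours on chromosome 14, had r = 0.44 (rho = 0.44, adjusted p = 0.00364 for r, permutation test). That correlation was 0.55 after regression on Hoxa5 and 0.27 after regression on the lower quartile, where it no longer passed (adjusted p = 0.125, permutation test). Chat and Slc5a7, which serve the same neurons, had r = 0.03. After regression on the lower quartile their r was 0.22 and did not pass (adjusted p = 0.212, permutation test). Chat and Chrm4 had r = 0.47 (rho = 0.47), and 0.03 after regression on the lower quartile. Chrm2 correlated with Slc5a7 (r = 0.47, and 0.48 after regression on the lower quartile) and with Chrm3 (0.43), Chrm3 with Slc5a7 (0.34) and Chrm1 with Chat (0.36, where rho, at 0.31, did not pass).

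**Figure D5:**
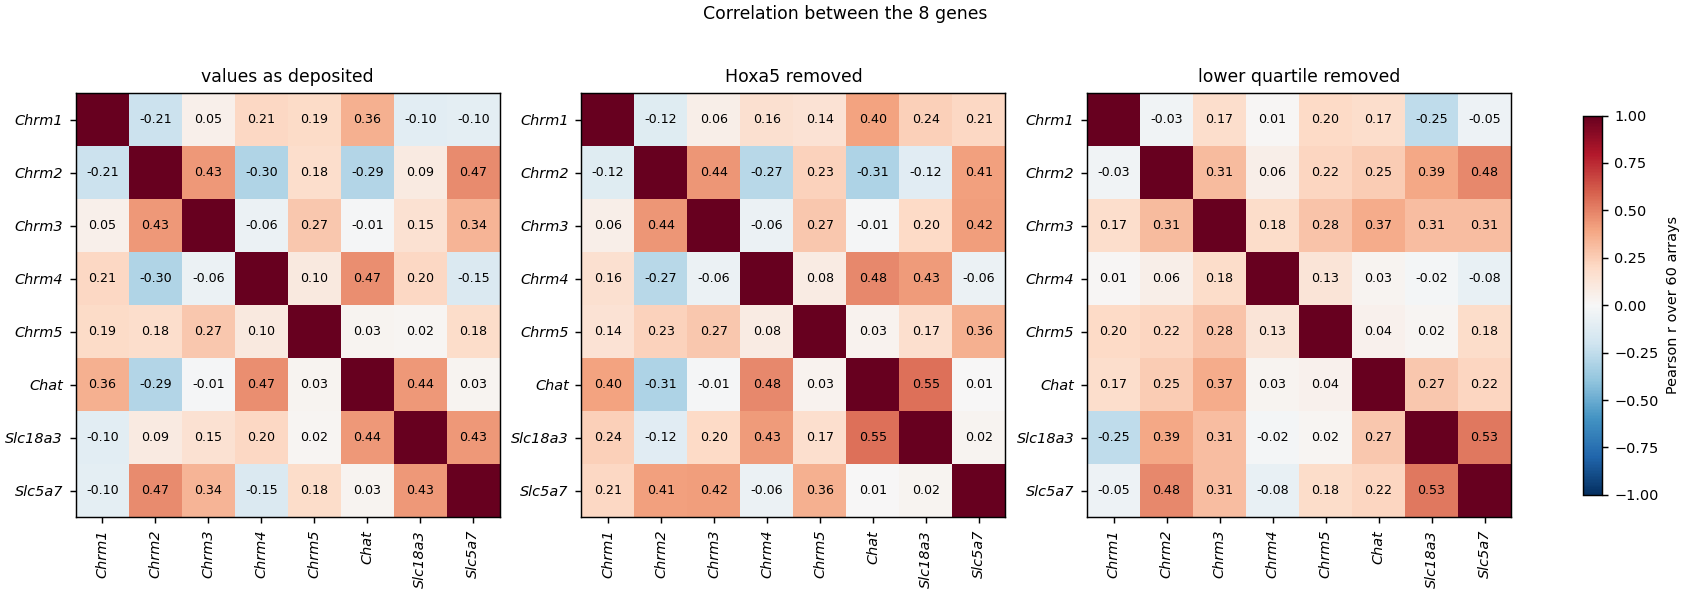
Pearson r over 60 arrays for each pair of the 8 genes, from the values as deposited, after regression of both genes on Hoxa5, and after regression on the lower quartile of the array. The pair Slc18a3 and Slc5a7 goes from 0.43 to 0.02 with Hoxa5 removed, and the pair Chat and Chrm4 from 0.47 to 0.03 with the lower quartile removed.

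Of the 15611 rows above the dim level, those most like each gene over the 60 arrays differed between the presynaptic genes. Slc18a3 was closest to Vamp1, a synaptic vesicle protein gene (r = 0.74), Mab21l2 (0.73), Hoxd3 (0.73), Syt2, a calcium sensor of fast synapses (0.73), and Hoxb2 (0.72). Slc5a7 was closest to Ret (0.78), the nuclear receptor gene Esrrg (0.73), the homeobox gene Meis1 (0.73), the vesicle protein gene Sv2c (0.73) and Aldoc (0.71). Chat was closest to Col4a4 (0.79), Il20rb (0.78), Pkmyt1 (0.76), Myrf (0.76) and Nlrc5 (0.76). For the receptors the closest rows were Was for Chrm1 (0.66), Snx25 for Chrm2 (0.77), Elmo1 for Chrm3 (0.67), Gchfr for Chrm4 (0.70) and Tmed8 for Chrm5 (0.56). Gpr176, an orphan receptor gene, was among the 5 closest to both Chrm3 (0.65) and Chrm5 (0.52). These likenesses share arrays, and so also depth of signal and tissue makeup, and carry no test.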

How the data were processed

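The deposited values are log2 signals of 28858 array rows on 60 arrays. Per the submitters' processing notes the authors made them with RMA in the oligo package under R 2.15.1; a deposited session record names oligo 1.22.0. No background correction or normalization was added. Rows were named from the platform annotation: 21789 rows have 1 gene symbol, 1621 several and 5448 none, and only the first were used. Groups came from the titles. One limma model (3.58.1, R 4.3.3) with 12 groups over all 60 arrays gave 21 contrasts, and a second model added Hoxa5. P-values were 2-sided and adjusted by Benjamini-Hochberg over all rows tested, threshold 0.05. Correlations used 100000 permutations. The limma steps were tested on simulated data. Named genes were the 8 genes, each at its widest CPO contrast, the 5 rows most like each, and in lists the genes that passed or the 4 widest. The genes and lists were chosen with earlier results of these data known. The number of arrays limits the precision, and 5 dams per group carry each mean. Replicate numbers pair nothing in the labels. Alternatives left out single arrays, changed the variance prior, weights, row filter, centring or covariates, or left out the 10 arrays whose Pon1 went against the label, the last chosen after the data were seen. Promoter sequences are RefSeq's; Chat, Slc18a3 and Slc5a7 were found by symbol, and the start of Slc5a7 differs by 4 bases between the promoter and gene tables.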

Additional observations from a re-analysis of the deposited data

Results flagged for a closer look

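Within groups of 5 arrays, 8 of 96 sets (the 8 genes in 12 groups) held 1 array that stood apart from the other 4 by Dixon's criterion, which chance gives in about 1 of 20 independent sets. These sets share arrays, and the same count over all rows was not made. An excess particular to the 8 genes was therefore not tested. Chrm1 was 8.46 on Q-tg 0.85 replicate 4, with the others at 8.26 to 8.27, and 8.44 on R-tg 0.85 replicate 5, with the others at 8.19 to 8.26. Chrm2 was 9.19 on R-tg 0.00 replicate 1, against 8.93 to 8.98. Chrm3 was 9.08 on KO 0.50 replicate 4, against 8.92 to 8.95, and Chat was 5.94 on the same array, against 6.16 to 6.21. Chrm5 was 7.05 on KO 0.75 replicate 5, against 7.14 to 7.18. Chat was 6.02 on WT 0.00 replicate 2, against 6.14 to 6.18. Slc18a3 was 7.07 on R-tg 0.85 replicate 1, against 7.35 to 7.42. By the lower quartile of the array, from low to high among the 60, R-tg 0.00 replicate 1 ranked 2, KO 0.50 replicate 4 ranked 3, R-tg 0.85 replicate 1 ranked 9, WT 0.00 replicate 2 ranked 11, R-tg 0.85 replicate 5 ranked 15, KO 0.75 replicate 5 ranked 54 and Q-tg 0.85 replicate 4, which also had the highest Chat signal, ranked 56. Whether this property of the arrays sets these values was not tested.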

How the results depend on the processing

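The slopes of Slc18a3 and Slc5a7 on Hoxa5 passed under every alternative run (adjusted p at most 0.00173 and 0.00772, limma), and leaving out single arrays gave 0.129 to 0.163 and 0.097 to 0.110. Over the 21 contrasts none of the 8 genes passed with a trended variance prior, array weights, the replicate block, centring, the lower quartile or Hoxa5 as a term, or without the 10 arrays. The count of rows with a slope on Hoxa5 (848) was 1400 with array weights, 1531 with the lower quartile as a term, 1341 without group terms, 255 with Pon1 as a term, 143 without the 10 arrays whose Pon1 went against the label, and 589 to 1660 without single arrays (1660 without WT 0.75 replicate 1). With the mean of 18 hindbrain and cord genes in place of Hoxa5 it was 9331, and with the 8 of them above the dim level 4278; these means correlated with the lower quartile at 0.49 and 0.33. Under the first, Chat passed (0.36, adjusted p = 0.00827, limma) and Chrm2 (-0.042), Chrm3 (-0.046) and Chrm4 (0.14) changed sign; under the second Chrm3 (-0.017) and Chrm4 (0.059) did. The Chrm2 correlation with Hoxa5 (0.26) was 0.33 with the lower quartile removed and 0.21 to 0.33 without single arrays. The Chrm1 slope passed without group terms (adjusted p = 0.036, limma). Near 0, single arrays turned the Chrm3 slope (-0.0014 to 0.012) and the correlations with Hoxa5 of Chat (-0.0092 to 0.094) and Chrm3 (-0.030 to 0.087), the last also without the 10 arrays (-0.042).

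Across contrasts, the R-tg minus WT term at 0.75 went from 1 row to 0 with a trended variance prior, every row of the table, centring, the replicate block, the contrast's groups alone, the lower quartile or Hoxa5 as a term, and without the 10 arrays, to 2 with array weights, and to 0 to 1 without single arrays. Array weights gave 39 rows for CPO 0.75 in WT, 118 for the R-tg minus Q-tg term at 0.85, and 1 each for CPO 0.85 in R-tg, CPO 0.85 averaged, R-tg against Q-tg at dose 0 and the R-tg minus Q-tg term at 0.75. That term at 0.85 had 9 with every row, 3 with the lower quartile, 1 without the 10 arrays and 0 to 25 without single arrays (25 without R-tg 0.85 replicate 5). CPO 0.75 in WT had 1 among rows above the dim level and 0 to 1 without single arrays, R-tg against WT at dose 0 had 0 to 1, and KO against WT at dose 0 had 29 without the 10 arrays. With the lower quartile as a term, Chrm4 (0.011) and Chat (0.030) in WT at 0.75 changed sign, and 4 pairs of genes correlated in place of 7. Centring turned the Chat and Slc5a7 correlation (-0.096). The causes were not tested. Replicate numbers did not pair the arrays (median correlation of deviations -0.014 with the same number and 0.007 with another; 13 of 60 arrays were closest to their own number), and with the replicate block 605 rows had a slope and 0 of 168 values of the 8 genes passed. Another row of the same symbol was not run, as each gene has 1 row. A dim row such as Chat has little signal above background to show a difference.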

Other observations

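The 8 genes were also set against the mean of each of 17 marker lists over the 60 arrays, and 51 of 136 such correlations passed an adjusted permutation p of 0.05 by Pearson r. The adjustment covered these 136 alone. How many other rows would pass was not counted, so the 51 are not a result particular to these genes. Slc18a3 had r = 0.77 (rho = 0.78) with the hindbrain and cord genes, 0.72 (rho = 0.74) with the motor neuron genes, 0.58 with the choroid plexus genes and -0.46 with the cortex genes. Slc5a7 had r = 0.52 with the hindbrain and cord genes, 0.57 with the choroid plexus genes and 0.43 with the motor neuron genes. Chrm2 had r = 0.68 with the genes of muscarinic signalling, whose mean had r = -0.61 with the lower quartile of the array, and Chrm1 had r = 0.39 with the cortex genes. Chat had r = 0.73 with the forebrain cholinergic genes, 0.69 with the skeletal muscle genes, 0.53 with the motor neuron genes and 0.32 with the hindbrain and cord genes, and all of those means rose with the lower quartile (r = 0.73, 0.93, 0.55 and 0.42). These correlations share arrays and were not separated from the lower quartile.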
